A study of Mus musculus with 6 samples.

Results

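The TNF receptor superfamily genes described here are 10 named genes, matched by symbol among the 24421 genes of an expression table of mouse regulatory T cells (Treg), a CD4 lineage that depends on the factor Foxp3 and dampens immunity. They are Fas, Tnfrsf1a, Tnfrsf10b, Tnfrsf25, Tnfrsf1b, Tnfrsf4, Tnfrsf9, Tnfrsf18, Cd27 and Tnfrsf14, and 10 of 10 were found and passed the filter on low values, which asked for 1 FPKM or more in 2 or more libraries. The cells were wild-type Treg from spleen and lymph nodes, profiled by SMART-seq in 3 groups of 2 libraries. One group was unstimulated, another was stimulated, and the last was stimulated in the presence of iBP, which the design text describes as inhibiting H2AK119ub1, the histone mark laid down by Polycomb repressive complex 1. The stimulus, its duration, the iBP dose, the age of the mice and the purity of the cells are not given in the labels, and no group received iBP without stimulation. Kdm2b conditional knockout cells, which the design text also names, were not analysed here.

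Members of this family are cell-surface receptors with cysteine-rich ectodomains that bind trimeric ligands of the TNF superfamily. One branch, to which Fas, Tnfrsf1a, Tnfrsf10b and Tnfrsf25 belong, carries a cytoplasmic death domain that can recruit adaptors of the caspase pathway. The other branch, here Tnfrsf1b, Tnfrsf4, Tnfrsf9, Tnfrsf18, Cd27 and Tnfrsf14, binds TRAF adaptors and signals to NF-kappaB and MAP kinases. Treg are known for high surface levels of the proteins encoded by Tnfrsf18 (GITR), Tnfrsf4 (OX40) and Tnfrsf1b (TNFR2), and signals through them support Treg survival and expansion.

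Stimulated Treg had higher Fas, Tnfrsf9 and Tnfrsf18 and lower Cd27 than unstimulated Treg, whereas no receptor gene passed the test between stimulated cells with and without iBP. Mean Fas was 2.03 times its unstimulated level, Tnfrsf9 1.90 times and Tnfrsf18 1.53 times, and Cd27 was 38.7% lower. These 4 of 10 receptors passed over all genes tested (adjusted p under 0.05 by limma with Benjamini-Hochberg adjustment), where 1.29% of 10436 genes did. The 3 rises compare with 0.968% of genes called higher and the 1 fall with 0.326% called lower. The members were chosen with earlier results of these data known, so these shares are a description and no test of the family. In bulk RNA, fewer cells expressing a gene and less RNA per cell cannot be told apart. Nothing in the labels ties the 2 libraries of a group to separate animals, so p-values cover the spread between these samples and no more, which may be technical.

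The libraries summed to between 366044 and 381302 FPKM over all genes. Unstimulated replicate 1 had 12596 genes above 0, and the other libraries had 13293 to 13592. Without counts the read depth is unknown, and single values carry no counting error. Unstimulated replicate 1 stood apart: its first principal component score was −37.9, that of unstimulated replicate 2 was −9.32, and both stimulated groups scored 10.5 to 13.3. 

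All 6 Treg markers on the list were detected, and some of them rose together with the receptors: 2 of 6 in stimulated against unstimulated cells (Foxp3 and Il2ra) and 3 of 6 with iBP against unstimulated (these and Ctla4). Their summed level was 526 and 575 FPKM in unstimulated, 744 and 787 in stimulated and 805 and 797 in iBP libraries. Foxp3, the lineage factor, had values of 35.5 and 47.1, 121 and 101, and 122 and 124 FPKM in that order (log2 difference 1.41, adjusted p = 0.000923, and with iBP 1.57, adjusted p = 0.000482). Il2ra, which encodes the alpha chain of the interleukin-2 receptor, differed by 0.92 (adjusted p = 0.00364) and 0.74 (0.0116). The second Il2ra call was lost if unstimulated replicate 2 (0.0550), iBP replicate 1 (0.141) or iBP replicate 2 (0.0937) was dropped. Ctla4, an inhibitory receptor gene, passed with iBP against unstimulated (0.51, adjusted p = 0.0412), a call that was lost if any of the 4 libraries compared was dropped (0.0629 to 0.301) and with the replicate block (0.108). Like the receptors, these 3 genes did not pass without the filter or without the variance trend. Ikzf2, Cd4 and Cd3e did not pass in any comparison, and Cd4 read 83.1 to 107 FPKM. In stimulated against unstimulated cells Ikzf2 and Cd4 pointed lower (log2 difference −0.19 and −0.19), and Cd3e pointed higher (0.13). With iBP against unstimulated the differences were −0.04, 0.05 and 0.28 for Ikzf2, Cd4 and Cd3e. The summed level therefore rose although not every marker did. The part of the Treg marker differences in the receptor differences was not tested.

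B-cell markers were present as well: 8 of 8 were detected, and their summed level was 804 and 832 FPKM in unstimulated, 874 and 818 in stimulated and 725 and 765 in iBP libraries. Among them Cd79b, a B-cell receptor component, stood at 329 and 314, 336 and 340, and 222 and 244 FPKM, and Cd79a and Ms4a1 at 234 to 291 and 66.3 to 74.95. None of the 8 B-cell genes passed in any comparison, and their part in the receptor differences was not tested. Of the 6 myeloid markers, Lyz2, the lysozyme gene, read 65.5 to 99.5 FPKM, while Csf1r, Itgam, Cd14, S100a8 and S100a9 stayed under 1 FPKM in all 6 libraries. The CD8 T-cell markers Cd8b1 and Cd8a read 6.75 to 12.98 and 1.05 to 2.05 FPKM, and the dendritic markers Flt3 and Zbtb46 2.02 to 5.14 and 0.558 to 2.30, with Xcr1, Siglech and Itgax at or under 1.32. Among NK markers Klrd1 read 0.210 to 2.33 FPKM, and Ncr1, Klrb1c and Eomes stayed at or under 1.21. None of these genes that were tested passed in any comparison, and their part in the receptor differences was not tested either.

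The promoter windows of the 4 receptor genes that changed are shown because these are the members the comparison of stimulated with unstimulated cells turns on. They are RefSeq sequences of GRCm38.p6, 300 bases long, from 250 before to 50 after an annotated start, printed 5′ to 3′ on the gene's strand. Capitals mark matches on either strand to the AP-1 motif TGANTCA, the STAT motif TTCNNNGAA or the NF-kappaB consensus.
Fas, chr19:34290409-34290708 (+ strand): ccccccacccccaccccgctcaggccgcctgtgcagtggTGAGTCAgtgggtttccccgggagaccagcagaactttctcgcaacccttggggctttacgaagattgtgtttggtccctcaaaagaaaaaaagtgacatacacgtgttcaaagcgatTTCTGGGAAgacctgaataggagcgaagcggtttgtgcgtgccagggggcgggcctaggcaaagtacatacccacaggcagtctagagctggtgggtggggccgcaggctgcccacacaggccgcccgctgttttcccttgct
Tnfrsf9, upstream start, chr4:150919905-150920204 (+ strand): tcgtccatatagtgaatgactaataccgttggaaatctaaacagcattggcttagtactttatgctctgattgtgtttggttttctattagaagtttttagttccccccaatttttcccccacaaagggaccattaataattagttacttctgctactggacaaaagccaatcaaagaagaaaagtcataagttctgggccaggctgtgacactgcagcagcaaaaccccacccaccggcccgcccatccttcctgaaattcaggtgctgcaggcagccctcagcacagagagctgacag
Tnfrsf9, downstream start, chr4:150927749-150928048 (+ strand): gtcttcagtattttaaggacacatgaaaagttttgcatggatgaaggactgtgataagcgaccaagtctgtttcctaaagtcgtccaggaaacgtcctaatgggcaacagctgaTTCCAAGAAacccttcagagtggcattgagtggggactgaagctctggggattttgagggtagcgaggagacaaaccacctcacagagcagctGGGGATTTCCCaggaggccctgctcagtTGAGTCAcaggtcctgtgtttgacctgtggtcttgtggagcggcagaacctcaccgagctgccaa
Tnfrsf18, chr4:156026072-156026371 (+ strand): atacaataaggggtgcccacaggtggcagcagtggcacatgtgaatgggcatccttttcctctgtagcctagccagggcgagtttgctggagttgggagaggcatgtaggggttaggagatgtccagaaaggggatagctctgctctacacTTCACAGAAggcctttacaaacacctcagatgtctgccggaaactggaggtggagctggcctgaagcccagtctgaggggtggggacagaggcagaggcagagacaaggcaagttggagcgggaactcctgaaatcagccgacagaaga
Cd27, chr6:125236978-125237277 (- strand): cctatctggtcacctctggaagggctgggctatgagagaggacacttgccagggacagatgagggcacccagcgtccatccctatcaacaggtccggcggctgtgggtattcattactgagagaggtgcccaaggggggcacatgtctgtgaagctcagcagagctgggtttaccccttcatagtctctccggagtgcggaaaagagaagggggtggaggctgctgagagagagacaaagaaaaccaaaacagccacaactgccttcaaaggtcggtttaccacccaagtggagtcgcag
The Fas window held 1 AP-1 match at offset −211 from the start and 1 STAT match at −93. The upstream Tnfrsf9 window held no match, and the downstream one held 1 STAT match at −136, 2 overlapping NF-kappaB matches at −43 and −42 and 1 AP-1 match at −15. Tnfrsf18 had 1 STAT match at −99, and Cd27 had 0 matches to any of the 3 motifs. STAT matches were also found for Tnfrsf1b (1), Tnfrsf1a (1) and 1 of the windows of Tnfrsf25, receptors that did not pass the test. Over all 32851 promoter windows, 7.81% held an AP-1 match, 8.3% a STAT match and 4.51% an NF-kappaB match. A match is a description of letters, and binding was not measured in these data.

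CpG dinucleotides, the sequence bound by the KDM2B subunit of the PRC1.1 complex when unmethylated, numbered 14 in the Fas window, 4 and 6 in the Tnfrsf9 windows, 4 in Tnfrsf18 and 7 in Cd27. The median over all windows was 7, and 36.3% had at least as many as Fas and 68.6% at least as many as Tnfrsf18. The receptors with the most were Tnfrsf25 (12 and 15), Fas and Tnfrsf1b (13), and the one with the fewest was Tnfrsf14 (2). In all, 11 windows matched 9 of the 10 symbols. Tnfrsf10b had no entry.

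Of the 10 genes, 6 lie on chromosome 4 within 10.8 Mb (GENCODE M21, GRCm38): Tnfrsf1b, Tnfrsf9, Tnfrsf25, Tnfrsf14, Tnfrsf4 and Tnfrsf18, in that order. Tnfrsf4 (chr4:156013843-156016612, + strand) and Tnfrsf18 (chr4:156026164-156028895, + strand) are 9.55 kb apart. Tnfrsf9 lies at chr4:150914562-150946102 on the + strand and overlaps Camta1 on the opposite strand without shared exonic bases. Cd27 (chr6:125232622-125237010, − strand) and Tnfrsf1a (chr6:125349362-125362484, + strand) are 112 kb apart. Fas lies at chr19:34290666-34327772 and Tnfrsf10b at chr14:69767472-69784411, both on the + strand. Tnfrsf18 shares 414 of its 1524 annotated exonic bases with the antisense gene Gm16008, and since the strand of the libraries is not given, reads of that pair cannot be told apart.

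**Figure D1:**
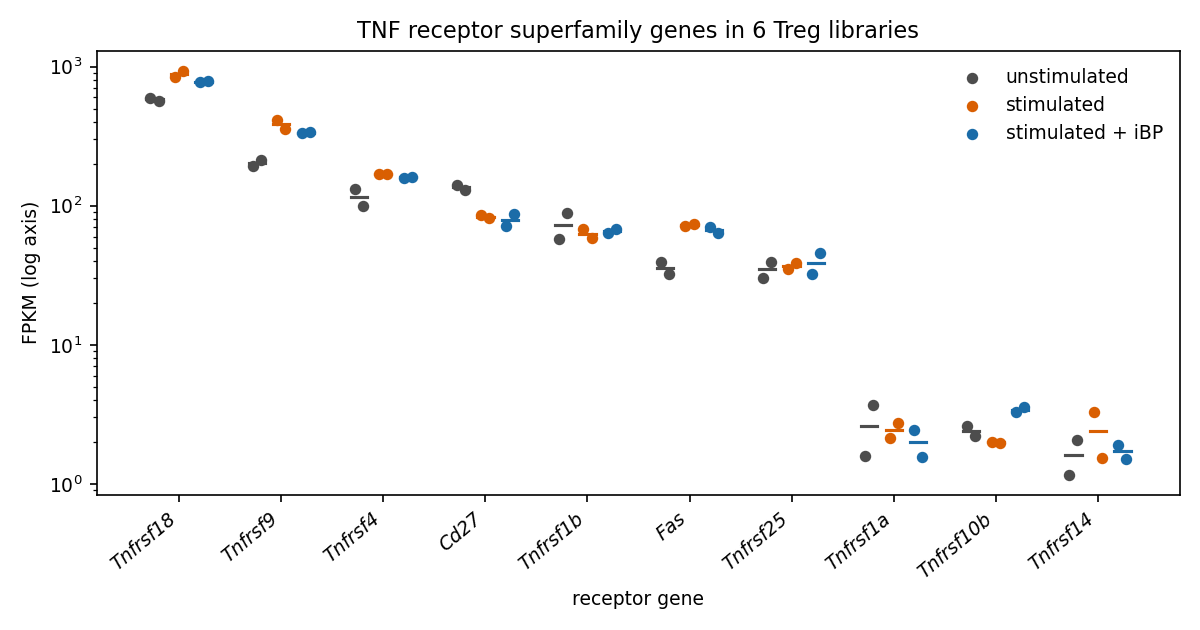
FPKM of the 10 receptor genes (log axis) in each of 6 libraries, with dots for libraries and short lines for group means of 2 libraries. Tnfrsf18 was the highest receptor in every library. Fas, Tnfrsf9, Tnfrsf18 and Tnfrsf4 sat higher in the 4 stimulated libraries with or without iBP, and Cd27 sat lower. Against unstimulated cells, Tnfrsf4 did not pass the test with or without iBP, and Tnfrsf18 passed only without it.

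FPKM is scaled to transcript length, so levels of different genes can be set side by side, but only roughly. PCR copies could not be separated, and the handling of multi-mapped reads is not given. Reads of Tnfrsf18 and its antisense gene could not be told apart. In unstimulated Treg the order of mean FPKM was Tnfrsf18 (582 ± 24.4, SD, n = 2), Tnfrsf9 (203 ± 12.9), Cd27 (136 ± 8.74), Tnfrsf4 (115 ± 22.9), Tnfrsf1b (72.8 ± 22.1), Fas (35.7 ± 4.90), Tnfrsf25 (34.8 ± 6.26), Tnfrsf1a (2.62 ± 1.47), Tnfrsf10b (2.39 ± 0.272) and Tnfrsf14 (1.61 ± 0.630). The libraries of Cd27 and Tnfrsf4 overlapped, as did those of Fas and Tnfrsf25 and those of Tnfrsf1a and Tnfrsf10b, so no order is read between those neighbours. Genes were not tested against each other, so overlap or separation of libraries between genes is a description. In stimulated cells Tnfrsf4 stood above Cd27 and Fas above Tnfrsf1b, without overlap between the libraries of either pair. With iBP the first 7 places were the same as in stimulated cells, with Fas and Tnfrsf1b overlapping. By level, Tnfrsf18 ranked 65 and 64 among all 24421 genes without stimulation, 45 and 37 after it and 46 in both iBP libraries. It was thus among the most abundant transcripts of the table in each group.

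The comparison of stimulated with unstimulated cells asks which receptor genes differ after stimulation. Among the TRAF-binding receptors, Tnfrsf9, which encodes CD137, a costimulatory receptor induced by antigen-receptor signalling, read 194 and 212 FPKM before stimulation and 416 and 356 after it. Both stimulated libraries were above both unstimulated ones. The log2(FPKM + 1) difference was 0.92 ± 0.12 (SE; 95% interval 0.67 to 1.17; adjusted p = 0.00184). Tnfrsf18, which encodes GITR, went from 599 and 565 FPKM to 847 and 931. The groups did not overlap, and the log2 difference was 0.61 ± 0.10 (95% interval 0.39 to 0.83; adjusted p = 0.0120). Its call ended without stimulated replicate 2 (adjusted p = 0.0763), with the replicate number as a block (0.0618), and when the fit held just the 2 groups (0.0518).

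Cd27, the receptor for CD70 and a marker of naive and central memory T cells, moved the other way. It read 142 and 130 FPKM before stimulation and 85.3 and 81.3 after it. Both stimulated libraries were below both unstimulated ones, and the log2 difference was −0.70 ± 0.13 (95% interval −0.99 to −0.41; adjusted p = 0.0264). This was the least secure of the 4 calls: it ended without stimulated replicate 1 (adjusted p = 0.0818), stimulated replicate 2 (0.185) or unstimulated replicate 1 (0.132), and with the replicate block (0.0803). The ratio of Tnfrsf9 to Cd27 FPKM within a library was 1.37 and 1.64 in unstimulated and 4.87 and 4.38 in stimulated libraries.

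Tnfrsf4, which encodes OX40, read 131 and 99.1 FPKM before stimulation and 169.7 and 169.97 after it. The stimulated libraries were above both unstimulated ones, but the difference of 0.57 ± 0.14 (log2; 95% interval 0.26 to 0.87) did not pass over all genes (adjusted p = 0.08004). It passed without unstimulated replicate 1 (adjusted p = 0.0241) and with a minimum FPKM of 5 (0.0488). Tnfrsf1b, which encodes TNFR2, read 57.2 and 88.4 FPKM before and 67.5 and 58.2 after stimulation. The groups overlapped, with the widest spread in the unstimulated pair (log2 difference −0.18 ± 0.19, adjusted p = 0.820). Tnfrsf14, which encodes HVEM, the partner of the inhibitory receptor BTLA, stayed between 1.16 and 3.27 FPKM in these 4 libraries (log2 difference 0.35 ± 0.37, adjusted p = 0.828).

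Among the death-domain receptors, Fas, which encodes the death receptor CD95, read 39.2 and 32.2 FPKM before stimulation and 71.4 and 73.8 after it. The groups did not overlap, and the log2 difference of 1.01 ± 0.15 (95% interval 0.69 to 1.33; adjusted p = 0.00476) was the largest of the 10. Its call ended without stimulated replicate 2 (adjusted p = 0.0547). Tnfrsf25, which encodes DR3, the receptor of TL1A, read 30.4 and 39.2 against 35.3 and 38.6 FPKM. These values overlapped, and the log2 difference was 0.09 ± 0.19 (adjusted p = 0.924). Tnfrsf1a, the gene of TNFR1, read 1.58 and 3.66 against 2.14 and 2.73 FPKM, and Tnfrsf10b, the mouse TRAIL receptor gene, 2.58 and 2.199 against 2.003 and 1.98. Neither passed (adjusted p = 0.993 and 0.906), although both Tnfrsf10b values were lower in stimulated cells. At these low levels the 95% intervals reached from −0.83 to 0.79 for Tnfrsf1a and from −0.84 to 0.49 for Tnfrsf10b.

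In this comparison 4 receptors were higher and 2 lower with no overlap between libraries, where 18.7% of all tested genes were higher and 19.1% lower in that way. The median log2 difference of the 10 receptors was 0.22 and that of all tested genes −0.0024. The calls of Fas, Tnfrsf9, Tnfrsf18 and Cd27 rest on the variance trend of the model and on the filter: without the trend their adjusted p ran from 0.154 to 0.310, and without the filter from 0.132 to 0.179. Their log2 differences kept their signs in all 16 alternatives and ranged from 0.87 to 1.15 for Fas, 0.81 to 1.03 for Tnfrsf9, 0.54 to 0.68 for Tnfrsf18 and −0.76 to −0.63 for Cd27.

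**Figure D2:**
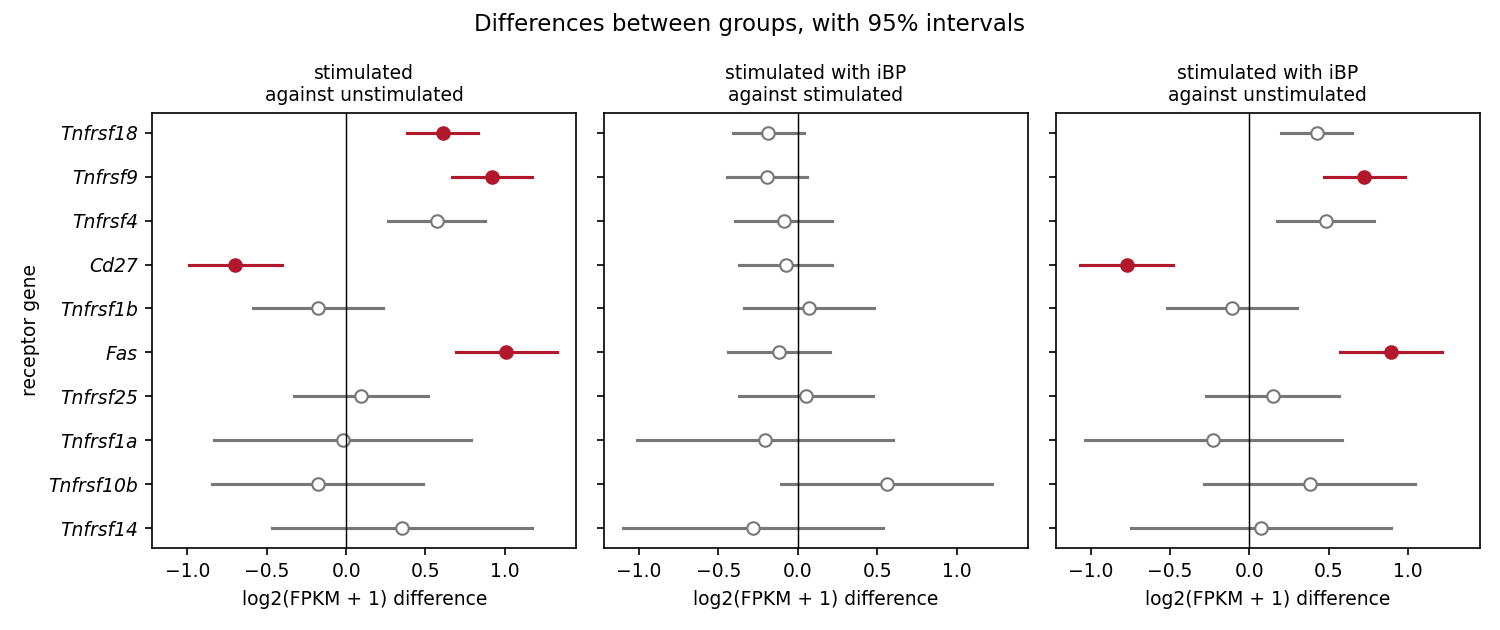
Difference in log2(FPKM + 1) for each receptor gene in the 3 comparisons, with 95% intervals from limma before adjustment for the number of genes; filled red points passed at an adjusted p under 0.05 and open grey points did not. Fas (1.01), Tnfrsf9 (0.92), Tnfrsf18 (0.61) and Cd27 (−0.70) passed in stimulated against unstimulated cells, and 0 of 10 passed between the stimulated groups.

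The summed level of the 10 receptors was 1199 and 1174 FPKM in unstimulated, 1699 and 1715 in stimulated and 1508 and 1562 in iBP libraries. As a share of all FPKM this was 0.314% and 0.314%, 0.452% and 0.453%, and 0.412% and 0.426%. Tnfrsf18 alone made up 49.99% and 48.1% of the sum in unstimulated libraries, 49.8% and 54.3% in stimulated and 51.0% and 50.8% in iBP libraries. Its share thus stayed between 48.1% and 54.3% in every library. Cd27 took 11.8% and 11.05% of the sum in unstimulated libraries, 5.02% and 4.74% in stimulated and 4.78% and 5.54% in iBP libraries. The share was lower in each of the 4 stimulated libraries than in either unstimulated one. Tnfrsf9 took 16.2% and 18.1%, 24.5% and 20.7%, and 22.2% and 21.6% in the same order. Death-domain receptors were the smaller branch, at 73.7 and 77.3 FPKM in unstimulated, 111 and 117 in stimulated and 108 and 114 in iBP libraries.

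**Figure D3:**
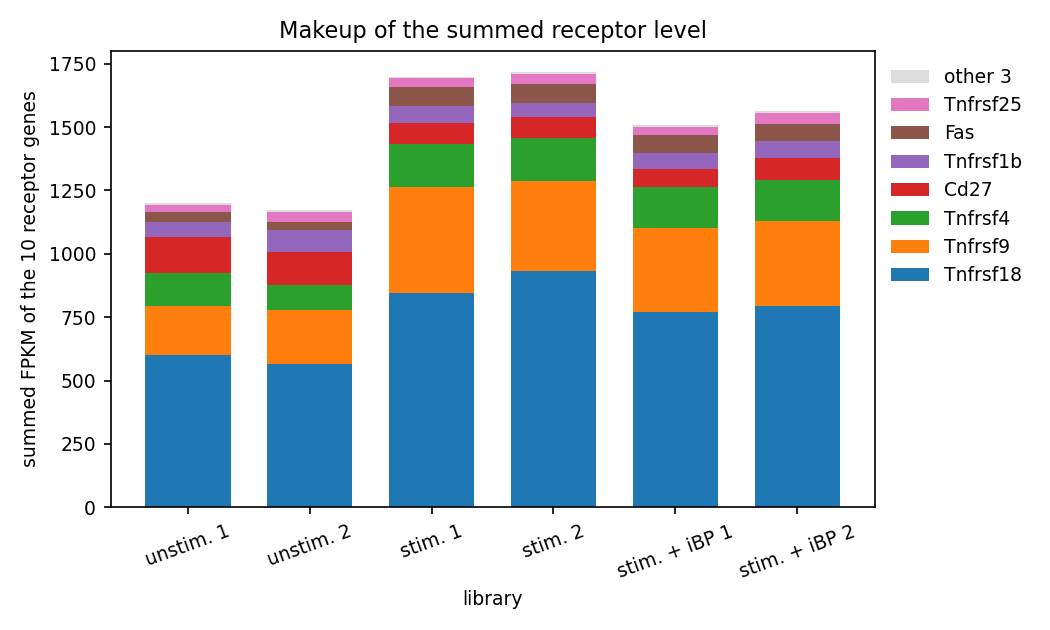
Summed FPKM of the 10 receptor genes in each library, split by gene (bars start at 0; no error bars, since each bar is 1 library). The sum was 1199 and 1174 in unstimulated and 1699 and 1715 in stimulated libraries, with Tnfrsf18 the largest part of each bar and Cd27 a smaller part after stimulation.

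The comparison of stimulated cells with and without iBP asks how the receptors differ when iBP was present. None of the 10 receptors passed by limma, and 0 had an unadjusted p under 0.05, where 1 of 10436 genes (0.00958%) passed and 498 had an unadjusted p under 0.05. Every alternative also gave 0 of the receptors it tested. With iBP, Tnfrsf9 read 334 and 338 FPKM against 416 and 356 without it. Both iBP libraries were lower, and the log2 difference was −0.19 ± 0.12 (95% interval −0.45 to 0.06; adjusted p = 0.998). Tnfrsf18 read 770 and 793 against 847 and 931 FPKM, again with both iBP libraries lower (−0.18 ± 0.10; interval −0.41 to 0.04). Fas read 70.2 and 63.6 against 71.4 and 73.8 (−0.12 ± 0.15; interval −0.44 to 0.20), and Tnfrsf4 159 and 161 against 169.7 and 169.97 (−0.09 ± 0.14; interval −0.39 to 0.22).

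Cd27 read 72.0 and 86.5 FPKM with iBP against 85.3 and 81.3 without it. These values overlapped (log2 difference −0.08 ± 0.13; interval −0.37 to 0.22). The farthest point estimate of the family was that of Tnfrsf10b, at 3.26 and 3.56 FPKM with iBP against 2.003 and 1.98. Its iBP libraries were both higher, with a log2 difference of 0.56 ± 0.30 and an interval from −0.11 to 1.22 (unadjusted p = 0.0915; adjusted p = 0.998). Tnfrsf1b (63.5 and 68.3 FPKM with iBP) and Tnfrsf25 (32.3 and 45.4) differed by 0.07 ± 0.19 and 0.05 ± 0.19, and Tnfrsf1a (2.43 and 1.57) and Tnfrsf14 (1.91 and 1.51) by −0.21 ± 0.37 and −0.28 ± 0.37. In all, 4 receptors were lower and 1 higher without overlap, where 21% of all tested genes were lower and 13.6% higher in that way. The median difference was −0.10 over the receptors and −0.03 over all genes. The iBP libraries had lower FPKM totals (366044 and 366722) than the stimulated ones (375821 and 378906). Rescaled to TPM, the median over all genes was 0.0018. The differences of Tnfrsf9, Tnfrsf18, Fas and Tnfrsf4 were then −0.15, −0.14, −0.08 and −0.05, and that of Tnfrsf10b was 0.71. The 95% half-widths, before adjustment for the number of genes, ran from 0.22 for Tnfrsf18 to 0.82 for Tnfrsf14.

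In stimulated cells with iBP against unstimulated cells, a comparison that shares its unstimulated libraries with the first, 3 of 10 receptors passed, 2 higher and 1 lower. Over all genes 1.75% passed, 1.03% higher and 0.728% lower. Fas differed by 0.89 ± 0.15 (log2; interval 0.57 to 1.21; adjusted p = 0.00903), Tnfrsf9 by 0.72 ± 0.12 (0.47 to 0.98; adjusted p = 0.00773) and Cd27 by −0.77 ± 0.13 (−1.07 to −0.48; adjusted p = 0.0122). Mean levels with iBP were 1.87 and 1.65 times unstimulated for Fas and Tnfrsf9, and 41.6% lower for Cd27. Without iBP replicate 1 none of the 3 passed (adjusted p = 0.129, 0.0922 and 0.185 for Fas, Tnfrsf9 and Cd27). Without iBP replicate 2 Fas (0.0624) and Tnfrsf9 (0.0937) did not pass. Without unstimulated replicate 1 Tnfrsf9 (0.0520) and Cd27 (0.0777) did not, and without the variance trend or the filter none of the 3 did.

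Tnfrsf18, at 1.34 times its unstimulated mean with iBP, differed by 0.42 ± 0.10 (log2; interval 0.20 to 0.65) and did not pass (adjusted p = 0.0645). It did pass in 7 of 16 alternatives, among them rescaling to TPM (0.0354) and quantile normalization (0.0461). Tnfrsf4 differed by 0.48 ± 0.14 (adjusted p = 0.138) and passed without unstimulated replicate 1 (0.0391). The other 5 receptors had adjusted p from 0.691 to 0.968. Libraries did not overlap for 5 receptors that were higher and 1 that was lower, where 18.1% of all tested genes were higher and 23.9% lower.

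Ligands and partners of these receptors, a list of 13 genes, had 10 tested. In stimulated against unstimulated cells 1 rose (Lta) and 0 fell, and with iBP against unstimulated 2 rose (Lta and Tnf). Lta, which encodes lymphotoxin alpha, a ligand of both TNF receptors, read 22.0 and 24.2 FPKM in unstimulated, 72.9 and 83.9 in stimulated and 69.4 and 62.3 in iBP libraries. Both stimulated groups were above the unstimulated one (log2 difference 1.72 ± 0.15, adjusted p = 0.000125, and 1.47 ± 0.15, adjusted p = 0.000482), and the second call ended without the filter (0.0525) and without the variance trend (0.0813). Tnf, the gene of the founding ligand, read 20.9 and 27.6, 37.6 and 40.9, and 43.4 and 42.4 FPKM. It did not pass in stimulated against unstimulated cells (0.69, adjusted p = 0.0805, but 0.0389 without unstimulated replicate 2) and passed with iBP against unstimulated (0.81, adjusted p = 0.0333). That call ended without either iBP library (0.235 without replicate 1 and 0.201 without replicate 2), without unstimulated replicate 1 (0.169), with the replicate block (0.0690), without the filter (0.195) and without the trend (0.238). Ltb, the lymphotoxin beta gene, was the most abundant gene of this list at 198 to 288 FPKM, and Btla, the HVEM partner, read 19.6 to 34.9. Neither passed in any comparison. The lymphotoxin beta receptor gene, Ltbr, is not among the 10 members and stayed under 1 FPKM in all 6 libraries.

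The ligands of the 3 receptor genes that rose, and that of Cd27, were picked out after their values were seen. Tnfsf18, which encodes the ligand of GITR, was listed at 0 FPKM in all 6 libraries, and Cd70, the ligand gene of Cd27, stayed at or under 0.402. Tnfsf9, the ligand gene of CD137, read 9.13 and 4.04 FPKM in unstimulated, 5.72 and 3.89 in stimulated and 5.07 and 6.39 in iBP libraries. Fasl read 15.3 and 10.8, 23.4 and 26.3, and 19.0 and 28.7 FPKM. Its unstimulated libraries were the lowest, but it did not pass (log2 difference 0.90, adjusted p = 0.10003 in stimulated cells). Thus ligand transcripts for Fas were present in the same preparations, whereas those for Tnfrsf18 and Cd27 were listed at 0 or stayed under 1 FPKM.

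Receptor-proximal adaptors and associated signalling genes, a list of 14 genes that were all tested, had 0 calls in stimulated against unstimulated cells. With iBP against unstimulated 1 rose and 0 fell. That gene was Casp8, the caspase recruited by death-domain receptors, at 114 and 118 FPKM in unstimulated, 157 and 180 in stimulated and 167 and 168 in iBP libraries. Both stimulated groups were above the unstimulated one, with log2 differences of 0.53 (adjusted p = 0.0526, not passing) and 0.53 (adjusted p = 0.0483, passing). The first passed with a minimum FPKM of 5 (0.0323), quantile normalization (0.0463) and robust moderation (0.0386). The second call ended without unstimulated replicate 1 (0.169), unstimulated replicate 2 (0.0795), iBP replicate 1 (0.301) or iBP replicate 2 (0.302), with a pseudocount of 0.1 (0.0565), the replicate block (0.112), no filter (0.183) or no trend (0.345). Birc3, which encodes the ubiquitin ligase cIAP2, was the most abundant gene of this list at 160 to 186 FPKM. Traf1 read 86.4 to 124 and Traf2, the main adaptor of the TRAF-binding receptors, 43.6 to 57.1 FPKM. None of these 3 passed in any comparison.

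Of 12 NF-kappaB target genes, all tested, 0 rose and 1 fell in stimulated against unstimulated cells, and the counts were the same with iBP against unstimulated. The gene was Tnfaip3, which encodes A20, an inhibitor of signalling from TNF receptors. It read 357 and 394 FPKM in unstimulated, 246 and 228 in stimulated and 231 and 220 in iBP libraries. Both stimulated groups lay below the unstimulated one, by −0.66 ± 0.11 (log2; adjusted p = 0.0120) and −0.73 ± 0.11 (adjusted p = 0.00552). The first call ended without stimulated replicate 2 (0.0887), unstimulated replicate 2 (0.0516) or the filter (0.137), without the trend (0.284) and with the replicate block (0.0525). The second ended without iBP replicate 1 (0.0567) or 2 (0.0880), without the filter (0.112) and without the trend (0.225). Nfkbia, the gene of the inhibitor IkappaB alpha, read 831 to 993 FPKM, and Rel and Nfkb1, subunit genes of the factor, read 141 to 155 and 74.0 to 87.5. These 3 did not pass in any comparison. With iBP against stimulated cells, 0 of the tested ligands, adaptors and NF-kappaB targets passed.

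**Figure D4:**
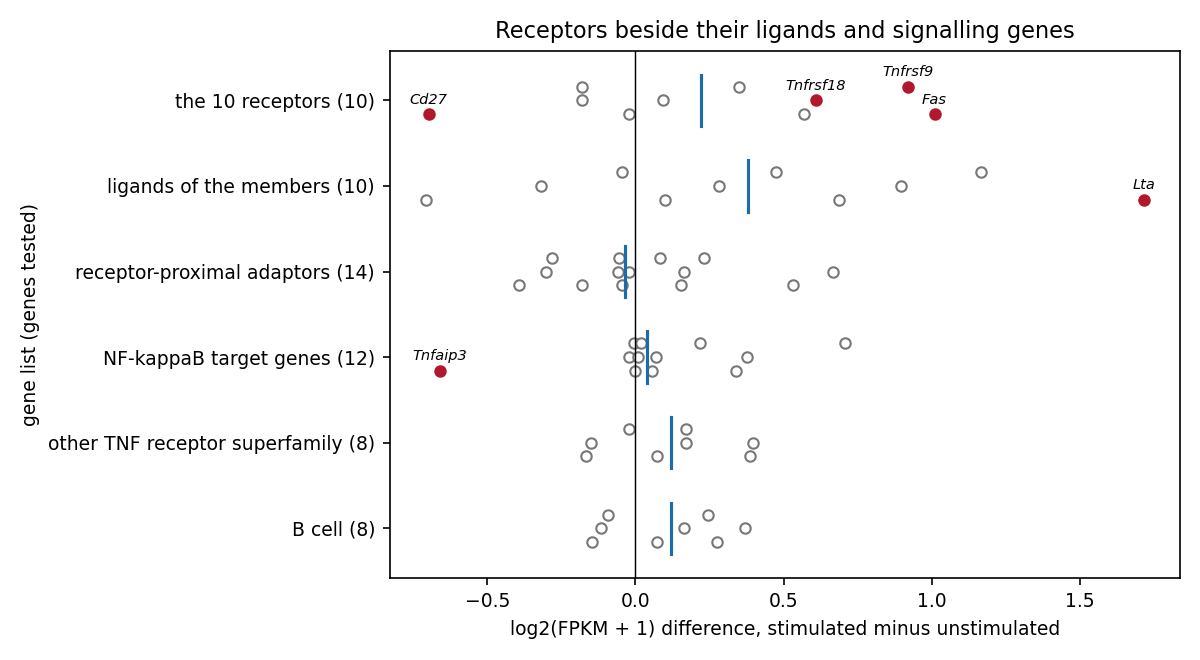
Difference in log2(FPKM + 1) between stimulated and unstimulated cells for each tested gene of 6 lists; red filled points passed at an adjusted p under 0.05, open grey points did not, and blue bars are list medians. Of the 10 receptors 4 passed (median 0.22), of the 10 ligands 1 (Lta, 1.72) and of the 12 NF-kappaB targets 1 (Tnfaip3, −0.66). Over all genes tested 1.29% passed. The Treg markers, which are not drawn, had 2 of 6 that passed (median 0.27).

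Of the other 18 receptor genes of the superfamily 8 were tested, with 0 calls in any comparison. Their median difference in stimulated against unstimulated cells was 0.12. The most abundant was Tnfrsf13c, the receptor of the B-cell survival factor BAFF, at 70.8 and 59.8 FPKM in unstimulated, 74.8 and 71.9 in stimulated and 54.9 and 65.2 in iBP libraries. Cd40, another receptor gene of B cells, read 16.6 to 31.6 FPKM over the 6 libraries, which also held the B-cell markers given above. Tnfrsf26, a gene with close neighbours in sequence whose reads may be shared, read 42.7 to 61.1, and Tnfrsf12a, which encodes Fn14, 17.3 to 30.1 FPKM. Tnfrsf11a, Tnfrsf11b, Tnfrsf17, Tnfrsf19, Tnfrsf21, Ltbr, Eda2r and Edar stayed under 1 FPKM in all 6 libraries.

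The genes whose log2 levels followed each receptor most closely over the 6 libraries were found by Pearson correlation among 9683 named genes, as a description that mostly reflects the difference between unstimulated and stimulated libraries. For Fas they were Furin (r = 0.994), Cd200 (0.994) and Csf2 (0.991), and for Tnfrsf9 Rasgrp1 (0.996), Treml2 (0.990) and Nup210 (0.989). For Tnfrsf18 they were Tes (0.992), Cep85l (0.992) and Tpt1 (0.992), and for Cd27 Sash3 (0.991), Tbc1d10a (0.990) and Rcc2 (0.988). Of these genes Furin, Cd200, Csf2, Tes and Sash3 passed the test in stimulated against unstimulated cells, and the others did not. Cep85l was near the floor, at 0.541 to 1.61 FPKM. Cd200, which encodes an immunoregulatory membrane glycoprotein, read 44.6 and 29.0 FPKM in unstimulated, 109 and 105 in stimulated and 99.2 and 94.1 in iBP libraries. Sash3, a lymphocyte adaptor gene, read 156 and 144, 92.2 and 96.5, and 85.9 and 96.7 FPKM. With 6 libraries such values are common: 92 genes reached 0.95 with Fas and 62 with Cd27. Among the receptors themselves, Fas correlated with Tnfrsf18 at 0.962, with Tnfrsf4 at 0.959, with Tnfrsf9 at 0.938 and with Cd27 at −0.936.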

How the data were processed

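RNA was primed with oligo-dT and the cDNA amplified by PCR, per the labels' protocols. The authors deposited FPKM values, that is fragments scaled to transcript length and library depth. HISAT2 2.2.1, StringTie 2.1.1 and mm10 are named in the submitters' processing notes. Annotation, strandedness and handling of multi-mapped reads were not given in the sources used here. No molecular identifiers are described, so PCR copies cannot be separated from other reads.

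The test ran on log2(FPKM + 1), a scale that understates changes of low genes. It covered the 10436 of 24421 genes that reached 1 FPKM in 2 or more libraries. One model with 3 groups was fitted to 6 libraries with limma 3.58.1 in R 4.3.3 (moderated variances with a trend, 3 residual and 8.52 prior degrees of freedom), two-sided, with Benjamini-Hochberg adjustment over all tested genes and a threshold of 0.05. The fit was also run on data simulated from its own variance estimates, which cannot test whether those estimates hold for the real libraries. Errors are standard errors for log2 differences and, beside group means, standard deviations of the 2 libraries. Columns were matched to samples by the labels' descriptions. When a library is left out, the lone sample of that group is taken to vary as the other groups do.

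The members and gene lists were chosen with earlier results of these data known. All 10 members are named. Of each list, genes that passed in any comparison and then those with the highest mean FPKM are named, up to 4. All 6 Treg markers are named, and for each member that passed the 3 most correlated genes. Alternatives were leaving out each library, a replicate block, 2 groups in the fit, quantile normalization, median-of-ratios scaling, rescaling to TPM, a pseudocount of 0.1, a minimum FPKM of 5, no filter, robust moderation and no variance trend. Coordinates are from GENCODE M21. Plots were made in Python 3.11.15 with matplotlib 3.10.9.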

Additional observations from a re-analysis of the deposited data

How the results depend on the processing

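The log2 differences of Fas, Tnfrsf9, Tnfrsf18 and Cd27 from unstimulated cells kept their signs in all 16 alternatives, but their calls did not. Of 10 receptors, 4 passed in stimulated against unstimulated cells and 3 with iBP against unstimulated. In both comparisons dropping the filter left 0 receptors past the test, and so did dropping the variance trend (0). Without 1 library the number ran from 1 (without stimulated replicate 2) to 4 in the first comparison and from 0 (without iBP replicate 1) to 4 in the second. It was 0 in every alternative for iBP against stimulated. The 2 libraries per group and an unknown depth limit all of these.

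Over all genes, the 135 calls of stimulated against unstimulated became 12 without the filter, 12 without the trend, 79 with only the 2 groups in the fit and 54 to 141 without 1 library. The 183 calls of iBP against unstimulated became 11, 9 and 53 to 190 without the filter, without the trend and without 1 library. The 1 call of iBP against stimulated became 0 without the filter, 0 without the trend and 0 to 5 without 1 library.

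With the replicate number as a block, 2 receptors passed in stimulated against unstimulated cells (Fas and Tnfrsf9, so that Tnfrsf18 and Cd27 were lost), and the calls over all genes became 79. For iBP against unstimulated they became 109, with 3 receptors. The labels do not say that equal numbers share an animal or day. Deviations of same-numbered libraries correlated at −0.0462, −0.0185 and −0.0118 across genes. These values show no strong shift common to same-numbered libraries, but they cannot tell whether an animal or day was shared.

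Receptors that changed sign when 1 library was left out had not passed. In stimulated against unstimulated cells the log2 difference then ran from −0.45 to 0.40 for Tnfrsf1a, −0.085 to 0.27 for Tnfrsf25, −0.49 to 0.13 for Tnfrsf1b and −0.029 to 0.73 for Tnfrsf14. For iBP against stimulated it ran from −0.41 to 0.0019 for Tnfrsf1a, −0.19 to 0.29 for Tnfrsf25, −0.035 to 0.18 for Tnfrsf1b, −0.21 to 0.055 for Cd27 and −0.66 to 0.10 for Tnfrsf14. For iBP against unstimulated it ran from −0.65 to 0.20 for Tnfrsf1a, −0.092 to 0.38 for Tnfrsf25, −0.42 to 0.20 for Tnfrsf1b and −0.18 to 0.32 for Tnfrsf14. The causes were not tested.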
